A study of Mus musculus with 454 samples.

Results

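Endothelial cells of the mouse nodose ganglion, the cells that line its blood vessels, were taken from 1 droplet library. A barcode is the tag of 1 droplet and a unique molecular identifier (UMI) is the tag of 1 RNA molecule. Levels are in CPM, the UMIs of a gene per 1000000 UMIs of a barcode or of a set of barcodes. The cells were chosen by their Cldn5 and Snap25 levels: a member held at least 1000 UMIs in the raw matrix, 3 or more of them from the endothelial gene Cldn5, at least 1000 CPM of Cldn5 and less than 500 CPM of the neuronal gene Snap25. Of 2468 barcodes with 1000 or more UMIs, 966 lay below the Snap25 limit. Of these, 853 did not meet the Cldn5 limits and are called comparison barcodes here. The rest met them and are called endothelial barcodes. They made up 4.58% of the 2468 (exact 95% interval 3.79 to 5.48) and 11.7% of the 966 (9.74 to 13.9). By the mural genes described further on, they fall into 92 barcodes below 1000 CPM of mural markers and 21 at or above it, called rich in mural RNA, which together are all of the members.

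The nodose ganglion holds the cell bodies of vagal sensory neurons, and the title of the study concerns those that act on feeding. The library came from dissociated ganglion cells of wild-type C57BL/6 mice aged 6 weeks, with no treatment or transgene named. Papain, collagenase and dispase were used to free the cells, which were pooled and prepared with 10x Genomics reagents. The sources used here do not state how many mice gave cells to the pool.

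Endothelial cells form the wall of every capillary and the inner layer of arteries and veins. In the brain and in nerve they are joined by tight junctions built from claudins, and they move glucose, amino acids and lipids by carriers while pumps of the ABC family return many drugs to the blood. Fenestrated endothelium, which lets plasma through, carries a diaphragm protein encoded by Plvap. Along a vessel the cells change gradually, from arterial cells under Notch control to venous cells marked by Nr2f2 and by adhesion molecules for leukocytes.

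The endothelial barcodes held 952774 UMIs in all, with a median of 8878 per barcode (range 1808 to 15809), 3065 genes and 1.95% mitochondrial UMIs. The comparison barcodes held 4509472 UMIs, with a median of 4162 (range 1001 to 72828), 1744 genes and 4.45% mitochondrial UMIs. Only 6 endothelial barcodes were in the filtered matrix the authors deposited, so nearly all of them came from the raw matrix alone. Among the comparison barcodes, 44.6% of the 966 were marked as satellite glia by Fabp7, and 39 barcodes were marked as mural cells, the pericytes and smooth muscle of vessels, by Rgs5. Each of these marks required 3 UMIs and 1000 CPM of the gene. There was 1 library and so no replicate of any value. Intervals are exact at 95% and cover counting error only, and no difference between the sets was tested. Because the members were chosen by Cldn5 and Snap25, all differences from the comparison barcodes are given as descriptions.

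The endothelial label was checked on 4 markers that the rule did not use. They are Cdh5, which encodes the cadherin of endothelial adherens junctions, the transcription factor gene Sox17, the organic anion carrier gene Slco1a4 and Emcn, which encodes the sialomucin endomucin. At least 2 of these had a UMI in 98.2% of endothelial barcodes (93.8 to 99.8), and all 4 had one in 92 of them. In the comparison barcodes 9 of 853 had at least 2 (1.06%, 0.484 to 1.99). Of the satellite-glia-marked barcodes none did, which allows up to 0.852%. When every barcode was thinned at random to 1000 UMIs, 62 endothelial barcodes (54.9%, 45.2 to 64.2) and 3 comparison barcodes (0.352%) still had at least 2.

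Cldn5, the main claudin of endothelial tight junctions, lies at chr16:18776847-18778262 on the plus strand of GRCm38. Over the endothelial barcodes its lowest level was 1028, its median 3010.1 and its highest 8909 CPM, values that the rule itself limited from below. Cdh5 (chr8:104101625-104144511, plus strand) had a median of 546.1 CPM and reached 2464 in the endothelial barcodes, with a UMI in 93.8% of them. Sox17 (chr1:4490931-4497354, minus strand) had a median of 378.6 CPM, reached 2956 and was seen in 91.2%. Both genes were at 0 in a few endothelial barcodes and at 0 in most barcodes of every comparison class. Slco1a4 (chr6:141805440-141856199, minus strand) had a median of 429.3 CPM, reached 2177 and was seen in 90.3%. Emcn (chr3:137341067-137432185, plus strand) had a median of 599.6 CPM, reached 2122 and was seen in 97.3%. The medians of all 4 unused markers were 0 CPM in each comparison class. Summed over all barcodes, the CPM of the endothelial barcodes over that of the comparison barcodes was 65.3 for Cdh5 (47.6 to 92) and 98.3 for Sox17 (64.1 to 158.5). It was 200.2 for Slco1a4 (116.1 to 378.5) and 69.8 for Emcn (51.7 to 96.2).

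**Figure D1:**
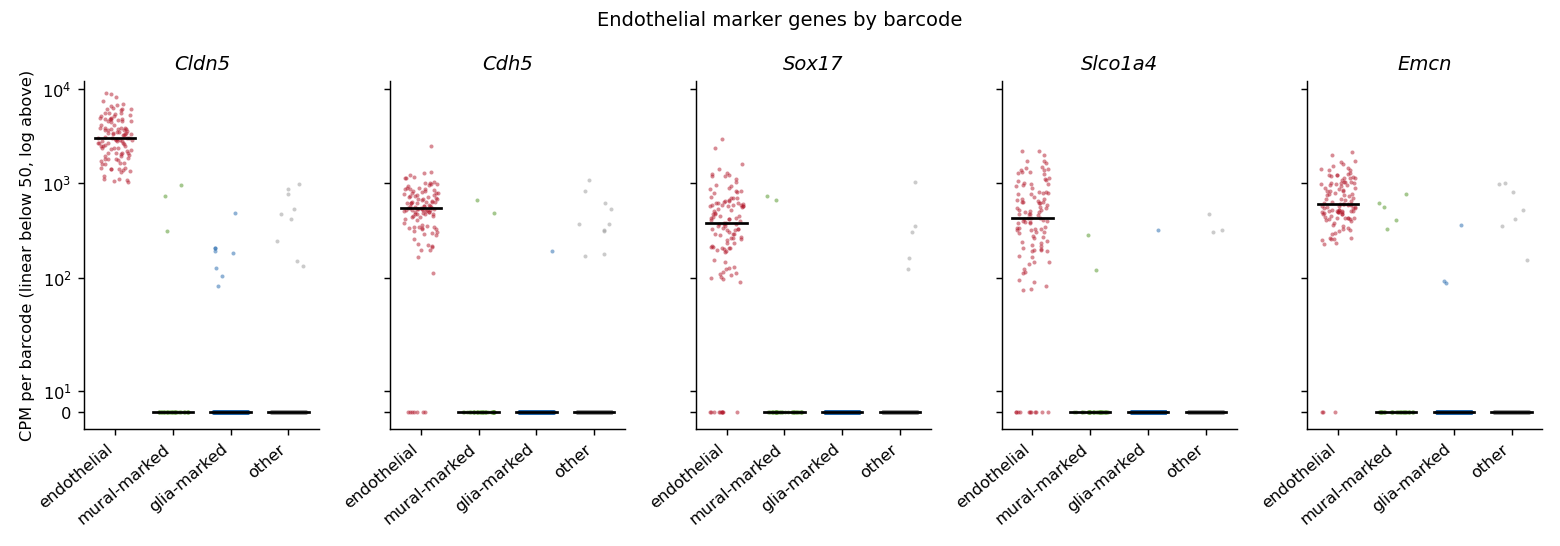
Level of the 5 endothelial markers in each barcode, in CPM on an axis that is linear below 50 and logarithmic above, for endothelial, mural-marked, satellite-glia-marked and other comparison barcodes; each point is 1 barcode and each line a median. The endothelial barcodes form a band with medians between 378.6 and 3010.1 CPM, while nearly all barcodes of the other classes lie at 0.

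The limits of the rule cut through a gradual range. The 3 endothelial barcodes nearest to the lower limit had 1028, 1060.2 and 1094 Cldn5 CPM. The 5 nearest barcodes left outside had 974, 961, 874, 775 and 737 CPM, and each of them carried 3 or 4 of the 4 unused markers. Those at 961 and 737 CPM were mural-marked, and the mural-marked levels given below include them. Another 3 barcodes met the Cldn5 limits and were kept out by Snap25 alone, at 693 to 727 CPM. The highest Snap25 level inside was 445.4 CPM, and 58 endothelial barcodes had none. Of the comparison barcodes 20 had a Cldn5 UMI, 6 of them 3 or more.

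Promoters are shown for 3 of the genes that were high together in the endothelial barcodes. All 3 windows hold the letters marked below, which not every such gene did. Robo4 encodes a receptor that steadies the vessel wall, Adgrl4 an adhesion G protein-coupled receptor of endothelium and Hhex a homeobox factor of early endothelial and blood development. Robo4 had 176.3 against 2.0 CPM in endothelial against comparison barcodes, Adgrl4 had 331.7 against 3.77 CPM and Hhex had 54 against 3 UMIs. The windows run from 250 bases before to 50 after the start of the gene and are from RefSeq on GRCm38.p6. Capitals mark CNGGAA on either strand (TTCCNG when read on the strand shown), core letters that ETS family factors such as Erg and Fli1 are known to bind.
Robo4, chr9:37401722-37402021, plus strand: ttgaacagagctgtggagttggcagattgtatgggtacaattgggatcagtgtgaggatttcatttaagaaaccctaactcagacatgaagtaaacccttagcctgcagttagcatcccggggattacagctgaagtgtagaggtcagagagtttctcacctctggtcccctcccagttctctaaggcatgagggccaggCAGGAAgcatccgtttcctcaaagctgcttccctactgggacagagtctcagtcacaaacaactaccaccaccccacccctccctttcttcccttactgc
Adgrl4, chr3:151437632-151437931, plus strand: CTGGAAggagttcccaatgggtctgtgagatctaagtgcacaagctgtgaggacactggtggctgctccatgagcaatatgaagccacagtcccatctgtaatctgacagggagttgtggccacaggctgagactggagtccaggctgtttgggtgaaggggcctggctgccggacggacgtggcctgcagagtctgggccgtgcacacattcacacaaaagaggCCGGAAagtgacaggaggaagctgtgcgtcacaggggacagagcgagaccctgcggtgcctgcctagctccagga
Hhex, chr19:37434591-37434890, plus strand: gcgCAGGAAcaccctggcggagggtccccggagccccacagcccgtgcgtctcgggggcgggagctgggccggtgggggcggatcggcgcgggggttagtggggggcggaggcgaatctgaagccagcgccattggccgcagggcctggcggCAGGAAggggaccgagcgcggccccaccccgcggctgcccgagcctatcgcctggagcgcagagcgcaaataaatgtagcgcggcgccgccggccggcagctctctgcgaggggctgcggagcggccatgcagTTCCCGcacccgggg
The Robo4 window held 1 such match, the Adgrl4 window 2 and the Hhex window 3. Of the 10 genes with the highest ratios in the endothelial identity and transcription factor lists, 7 were matched in the promoter table. Of their first windows 6 of 7 held CNGGAA on either strand (85.7%), beside 61.5% of the first windows of 27025 genes. Slco1a4, the gene with the highest ratio of the 7, was the one without it. ATTGT, core letters of SOX factor sites, searched on both strands, was in 3 of 7 (42.9%), beside 31.6% of the same genes. The motifs can share at most 1 letter. A match is a description of letters, not a bound site.

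Over all genes with at least 20 UMIs in both sets together, 11620 in number, 740 were at least 4-fold higher in the endothelial barcodes (6.37%) and 1587 were at least 4-fold lower (13.7%). The median ratio over these genes was 0.923. Counts of list members below use the same 4-fold limits, and nothing is read from them beyond the counts, since the members were chosen in the same contrast. Of the 29 genes of the endothelial identity list, which holds Cldn5 itself, 28 were at least 4-fold higher and 0 lower, with a median ratio of 56.9. Itm2a, a membrane protein gene, was the member between the limits, at a ratio of 2.89 (2.60 to 3.22), with 157.9 CPM in satellite glia.

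Ly6c1 and Ly6a encode small anchored surface proteins of the Ly6 family, whose close copies may share UMIs. Ly6c1 had a lowest level of 240.4, a median of 3380.3 and a highest level of 10882 CPM in the endothelial barcodes, with a UMI in all of them and in 2.46% of comparison barcodes. Ly6a had a median of 1739 CPM and was seen in 99.1% of endothelial and 2.46% of comparison barcodes. Flt1, a receptor of vascular endothelial growth factor (VEGF) that mainly holds the ligand back, had a median of 2231 and a highest level of 3896 CPM in the endothelial barcodes and was missing from 1 of them. Its summed level was 2398 against 38.1 CPM (ratio 62.9, 53.8 to 73.9). In barcodes thinned to 1000 UMIs, Flt1 was still seen in 87.6% of endothelial and 1.64% of comparison barcodes. Kdr, the main signalling receptor of VEGF, had 382.04 against 11.1 CPM (ratio 34.5), and Pecam1, an adhesion molecule of endothelial junctions, had 457 against 28 UMIs (ratio 77.2).

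Of 24 endothelial transcription factor genes with enough UMIs, 19 were at least 4-fold higher and 0 lower, with a median ratio of 23.7. These counts were 18 and 1 without the 21 endothelial barcodes rich in mural RNA. Erg and Fli1, ETS family genes that hold endothelial identity, had 129.1 against 1.77 CPM (ratio 72.8, 35.8 to 172.3) and 268.7 against 4.88 CPM (ratio 55.1, 35.6 to 89.4) in endothelial against comparison barcodes. Sox17 and its relatives Sox7 and Sox18 had ratios of 98.3, 22.4 and 61.5. Tal1, better known from blood formation, had 25 against 1 UMIs. The flow-induced factor genes Klf2 and Klf4 were 6.48-fold and 5.48-fold higher, and Klf2 also had 1198 CPM in mural-marked barcodes, beside 1596 CPM in endothelial barcodes. Mecom, a zinc finger factor gene, had 180.5 against 2.66 CPM.

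Another 5 factor genes lay between the limits, Foxo1 at a ratio of 1.72, Epas1 at 2.99, Tcf15 at 1.58, Heyl at 0.324 and Nr2f2 at 0.548. Heyl was at 0.122, below the lower limit, without the 21 endothelial barcodes rich in mural RNA. Nr2f2 encodes the main venous factor, and had 117.6 CPM in endothelial barcodes, beside 288.7 CPM in satellite glia and 394.4 CPM in mural-marked barcodes. Foxq1, a forkhead gene of brain endothelium, had 16 against 1 UMIs. Foxf2, a forkhead gene of brain vessels, had 3 UMIs in all the endothelial barcodes, and Foxl2 had none.

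Junction genes were found both above and below the 4-fold limits. Of 21 with enough UMIs, 12 were at least 4-fold higher, 2 lower and 7 between, with a median ratio of 4.73. The higher genes included Cldn5, Cdh5, Esam and Pecam1, the tight junction scaffold gene Tjp1 (533.2 against 57.2 CPM, ratio 9.32), F11r (ratio 7.85), which encodes the adhesion molecule JAM-A, and Cgnl1 (ratio 13.9). Lsr, whose product angulin-1 sits where the corners of several cells meet, had 118.6 against 1.33 CPM (ratio 89.1, 39.7 to 248.02) and was seen in 51 endothelial barcodes (45.1%). Ocln, the gene of occludin, had 3 UMIs in the endothelial barcodes and 0 in the comparison barcodes. Cldn3, Cldn11, Tjp3 and Cgn had 0 UMIs in the endothelial barcodes, which allows up to 3.15 CPM for each. The lower genes were Cldn1 (1 against 33 UMIs) and Cldn19 (1.05 against 74.3 CPM), which encodes a claudin of myelinating Schwann cells. With the 21 endothelial barcodes rich in mural RNA left out, 11 junction genes were higher and 1 lower. Cldn1 then lay between the limits at 0.539, a value that rests on the floor.

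Gap junction genes passed the upper limit through Gja4 (ratio 4.39) and Gjc1 (ratio 4.73). Mural-marked barcodes held 401.8 CPM of Gja4 and 342.3 CPM of Gjc1, beside 68.2 and 91.3 CPM in endothelial barcodes. Without the 21 endothelial barcodes rich in mural RNA, neither gene reached the limit, with ratios of 3.81 for Gja4 and 3.81 for Gjc1. Gja5, the connexin gene of larger arteries, had 3 UMIs, all in 1 endothelial barcode.

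Transporter genes known from the blood-brain barrier were mostly higher in the endothelial barcodes. Of 25 with enough UMIs, 18 were at least 4-fold higher and 0 lower, with a median ratio of 10.6, while 9 of the 34 genes had too few UMIs. With the 21 endothelial barcodes rich in mural RNA left out, 17 of 24 were higher. The efflux pump gene Abcg2 had a median of 1303 and a highest level of 5185 CPM in endothelial barcodes and a UMI in 99.1% of them. Its summed level was 1277 against 89 UMIs (ratio 67.9, 54.8 to 85.2). Abcb1a, which encodes P-glycoprotein, had a median of 823.9 CPM and summed levels of 882.7 against 30.2 CPM (ratio 29.3, 24.4 to 35.3). Its near copy Abcb1b had 5 UMIs, and UMIs from parts that the copies share are uncertain between them.

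The carriers for glucose and lysophospholipids were also seen in barcodes of other classes. Slc2a1, the glucose carrier GLUT1, had a median of 414.5 and a highest level of 2339.5 CPM in endothelial barcodes, with 590.9 against 43 CPM summed (ratio 13.7, 11.6 to 16.3). It was seen in 82.3% of endothelial barcodes and 23.2% of satellite glia, and after thinning in 31% and 3.25%. Mfsd2a, which carries lysophospholipids and holds back vesicle traffic in brain endothelium, had a median of 605.8 CPM, with 674.9 against 61.9 CPM summed (ratio 10.9, 9.46 to 12.6). It was seen in 85% of endothelial barcodes and 33.6% of satellite glia, and after thinning in 43.4% and 6.03%. Slc7a5, the large neutral amino acid carrier, had 454 against 67 UMIs (ratio 32.1, 24.8 to 42.1), and its partner chain gene Slc3a2 lay between the limits at 3.46. The monocarboxylate carrier gene Slc16a4 had 96 against 3 UMIs.

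Several carriers known from brain endothelium were scarce. Slco1c1, the thyroxine carrier, had 14 UMIs over the endothelial barcodes and was seen in 10 of them. Its ratio of 9.47 still put it among the higher genes, but it had too few UMIs without the 21 barcodes rich in mural RNA. Slc22a8 had 2 UMIs. Slc16a1, the lactate carrier MCT1, had 15.7 against 40.4 CPM (ratio 0.390). The transferrin receptor gene Tfrc had 14 against 82 UMIs (ratio 0.808, 0.423 to 1.43). Slc38a5 and Slc7a3 had 0 UMIs.

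**Figure D2:**
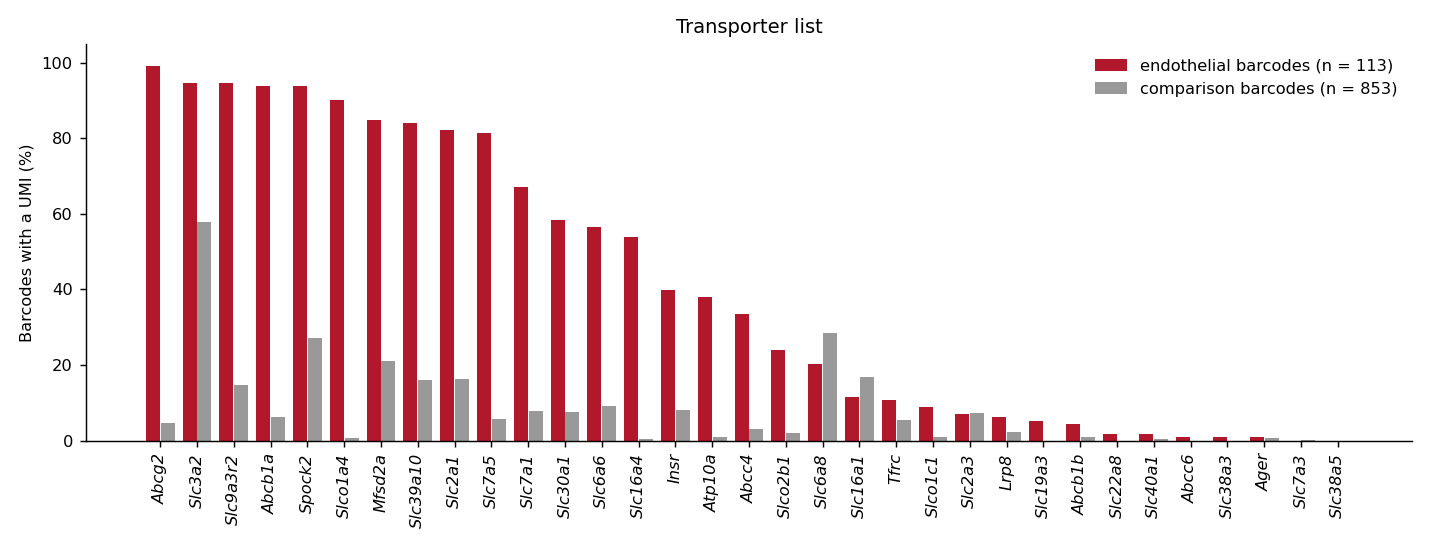
Share of barcodes with a UMI of the transporter genes shown, in percent, for endothelial (left bar) and comparison barcodes (right bar). Abcg2 reaches 99.1% of endothelial and 4.57% of comparison barcodes, while Slco1c1 stands at 8.85% and 0.821%.

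Fenestra and caveola genes were present beside the carriers. Of 14 genes 8 were at least 4-fold higher and 0 lower, with a median ratio of 7.23. The higher genes numbered 9 without the 21 endothelial barcodes rich in mural RNA. Plvap, the diaphragm gene of fenestrae and of vesicle necks, had a lowest level of 0, a median of 123.7 and a highest level of 1642 CPM in the endothelial barcodes. It was seen in 67 of them (59.3%), in 1.29% of comparison barcodes and in 0 of the satellite glia. Its summed level was 220 against 31 UMIs (ratio 33.6, 23 to 50.6), and after thinning it was seen in 22.1% of endothelial and 0.469% of comparison barcodes. Cav1, the coat protein gene of caveolae, had a median of 867.1 CPM and summed levels of 914.2 against 37.5 CPM (ratio 24.4), and Sdpr, which encodes cavin-2, had 680 against 92 UMIs (ratio 35). Ptrf, which encodes cavin-1, lay between the limits at 2.69, with 483.7 CPM in mural-marked barcodes. Gpihbp1, which holds lipoprotein lipase on the capillary wall, had 181.6 against 5.32 CPM (ratio 34.1), and Nostrin, an adaptor for nitric oxide synthase, 153.2 against 2.0 CPM.

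In growth factor pathways, receptor genes were higher in the endothelial barcodes and several ligand genes lower. In the VEGF, angiopoietin and apelin list 12 of 21 genes were at least 4-fold higher, 5 lower and 4 between, with a median ratio of 26.8. The receptor genes Flt1, Kdr, Flt4, Tek and Tie1 and the co-receptor gene Nrp1 were among the higher ones, as were the apelin receptor gene Aplnr (79 against 6 UMIs) and Esm1 (32 against 1 UMIs), a gene of sprouting tip cells. The ligand genes Vegfa (2 against 150 UMIs), Pgf (5.25 against 57.9 CPM), Angpt1 (1 against 20 UMIs) and Angpt2 (5 against 459 UMIs) were among the lower ones. The ligand gene Pdgfd was higher, at a ratio of 26.8. Without the 21 endothelial barcodes rich in mural RNA 11 genes were higher and 4 lower. Angpt1 then lay between the limits at 0.889, a value that rests on the floor, and Pdgfd had too few UMIs. Satellite glia had 49.5 CPM of Vegfa and 151.96 CPM of Angpt2. Pdgfb, the ligand that draws pericytes to vessels, had 152.2 against 2.44 CPM (ratio 62.4, 33.9 to 127.8). Its receptor gene Pdgfrb had 18.9 CPM in the endothelial barcodes, against 386.9 CPM in mural-marked barcodes.

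In the Notch list 5 of 17 genes were at least 4-fold higher, 3 lower and 9 between. The higher genes were the endothelial receptor gene Notch4 (60 against 15 UMIs, ratio 18.9), the ligand genes Dll1 (29 against 1 UMIs), Dll4 (51 against 9 UMIs, ratio 26.8) and Jag2 (ratio 5.68), and Mfng (93 against 9 UMIs), which encodes an enzyme that modifies Notch. Without the 21 endothelial barcodes rich in mural RNA 5 genes were lower, with Heyl and the mural receptor gene Notch3 added. Notch1 lay between the limits at 1.27 and the target gene Hey1 at 1.99. Another target gene, Hey2, had 1 against 680 UMIs.

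Of 19 Wnt pathway genes 8 were at least 4-fold higher and 1 lower, with a median ratio of 3.19. Wnt signalling through Fzd4 and its partner Tspan12 is known to build the barrier of retinal vessels. Fzd4 had 133.3 against 6.43 CPM (ratio 20.7, 13.8 to 32.2), Tspan12 69 against 45 UMIs (ratio 7.26) and Fzd6 39 against 17 UMIs (ratio 10.9). The nuclear factor gene Lef1 had a median of 242.3 CPM in endothelial barcodes, with 237.2 against 3.99 CPM summed (ratio 59.4, 36.8 to 102.1), and Tcf7 had 67 against 10 UMIs. Axin2, a feedback gene that the pathway turns on in many tissues, had a ratio of 13.2 (8.97 to 19.7) and was seen in 60 endothelial barcodes, while Apcdd1, another feedback gene, had 1 UMI. The ligand genes Wnt7a, Wnt7b and Ndp had 0 UMIs in the endothelial barcodes. The co-receptor genes that brain endothelium uses for Wnt7 ligands, Adgra2 and Reck, had 13 against 63 UMIs (ratio 0.977, 0.493 to 1.79) and 12 against 50 UMIs (ratio 1.14, 0.551 to 2.16).

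Of 20 genes of TGF-beta and BMP signalling 8 were at least 4-fold higher and 2 lower. These counts were 7 and 1 without the 21 endothelial barcodes rich in mural RNA. The endothelial receptor genes Eng (391.5 against 8.87 CPM, ratio 44.1) and Acvrl1 (271.8 against 6.43 CPM, ratio 42.3), both mutated in hereditary haemorrhagic telangiectasia, had the highest ratios of the list. The target gene Id1 had a median of 832.8 CPM in endothelial barcodes, with 907.9 against 43.5 CPM summed (ratio 20.9, 17.9 to 24.5). Its relative Id3 lay between the limits at 2.99, with 1289.8 CPM in satellite glia. The type 1 receptor gene Bmpr1a had 5.25 against 63 CPM.

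Genes that act on vessel tone or answer hormones were split. Of 27 with enough UMIs, 11 were at least 4-fold higher and 6 lower, or 10 and 5 without the 21 endothelial barcodes rich in mural RNA. Calcrl, the receptor for adrenomedullin and CGRP, had 144.8 against 3.77 CPM (ratio 38.4, 23.1 to 67.9). Its partner Ramp2, which makes it an adrenomedullin receptor, had a median of 724.3 CPM in endothelial barcodes and summed levels of 741 against 723 UMIs (ratio 4.85). Ramp1, the partner for CGRP, had 1 against 57 UMIs. The nitric oxide synthase gene Nos3 had 30 against 23 UMIs (ratio 6.17), the natriuretic peptide receptor gene Npr1 58 against 6 UMIs and the sphingosine phosphate receptor gene S1pr1 240.4 against 22.8 CPM (ratio 10.5). Lepr, the leptin receptor gene, was seen in 26 endothelial barcodes (23%), with 30 against 12 UMIs (ratio 11.8, 5.88 to 25.4). Of receptors known in vagal feeding signals, Glp1r had 0 UMIs in endothelial barcodes and Cckar 11, with 11.5 CPM of Cckar there and 201.9 CPM in the free RNA, the summed RNA of barcodes of 1 to 100 UMIs.

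Of 15 genes of clotting and its control, 10 were at least 4-fold higher and 1 lower, or 3 lower without the 21 endothelial barcodes rich in mural RNA. Thbd, the anticoagulant receptor thrombomodulin, had 151.1 against 6.43 CPM (ratio 23.5), and Vwf, which tethers platelets, 240.4 against 3.99 CPM (ratio 60.2, 37.3 to 103.4). Cd93, Clec14a and Mmrn2, genes known from endothelium, had 616 against 48 UMIs, 100 against 8 UMIs and 473.4 against 6.87 CPM. F3, tissue factor, which starts clotting, had 1.05 against 90.3 CPM, with 132.6 CPM in satellite glia.

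Of 35 genes of leukocyte adhesion and antigen presentation 14 were at least 4-fold higher, 5 lower and 16 between. Without the 21 endothelial barcodes rich in mural RNA 16 were higher and 8 lower. Ly6e, an interferon-induced surface protein gene, had a lowest level of 856.4, a median of 2611 and a highest level of 4955 CPM in endothelial barcodes, with a UMI in all of them and in 7.15% of comparison barcodes. It had a ratio of 45.9 (40.4 to 52.3). Iigp1, an interferon-induced GTPase gene, had a median of 293.6 and a highest level of 3304 CPM, with 576.2 against 22.4 CPM summed (ratio 25.7, 20.8 to 32.1). Further interferon-induced genes above the limit were Bst2 (ratio 8.13), Ifit1 (9.79), Ifitm3 (5.24), Ifit3 (4.61), Ifitm2 (4.07) and Isg15 (4.02). Irf1 (2.81) and Igtp (2.90) lay between the limits.

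The class I genes H2-D1, H2-K1 and B2m, whose products show peptides to T cells, lay between the limits at 2.94, 3.21 and 2.05, and each was seen in 99.1% of endothelial barcodes. H2-D1 and H2-K1 belong to a family of close copies, so their UMIs may be shared. The class II genes Cd74 (9 against 2484 UMIs) and H2-Ab1 (3 against 1012 UMIs) were scarce in the endothelial barcodes. Icam2, an adhesion molecule gene of resting endothelium, had 182.6 against 1.55 CPM. The inducible molecules were seen in fewer endothelial barcodes, Icam1 in 20, Vcam1 in 14, Selp in 8 and Sele in 5.

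Of 20 lipid genes 5 were at least 4-fold higher and 8 lower, or 5 and 7 without the 21 endothelial barcodes rich in mural RNA. The higher ones were Acer2, an alkaline ceramidase gene (91 against 4 UMIs), Pltp, which moves phospholipids between lipoproteins (549 against 59 UMIs, ratio 44), Gpihbp1, the lipase gene Lipe and the lipoprotein receptor gene Scarb1 (ratio 4.50). Apoe had a ratio of 0.0111 (0.0102 to 0.0121), with 545.8 CPM in endothelial barcodes, 79366 CPM in satellite glia and 3694 CPM in the free RNA. Fabp4 and Cd36, fatty acid genes of heart and fat capillaries, had 1 and 4 UMIs.

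In the matrix list 5 of 25 genes were at least 4-fold higher and 4 lower. Igfbp7, a secreted protein gene of vessel walls, had a lowest level of 507.6, a median of 4086 and a highest level of 9909.5 CPM in endothelial barcodes, with a ratio of 16.2 (15.2 to 17.2). Mural-marked barcodes had 3944 CPM of it, and satellite glia 28.3 CPM. The basement membrane collagen genes Col4a1 and Col4a2 had ratios of 2.37 and 4.18. The laminin gene Lama5 was higher (ratio 7.96, 4.57 to 14.2) and Lamb1 lower (18 against 692 UMIs), with 186.6 CPM of Lamb1 in satellite glia.

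**Figure D3:**
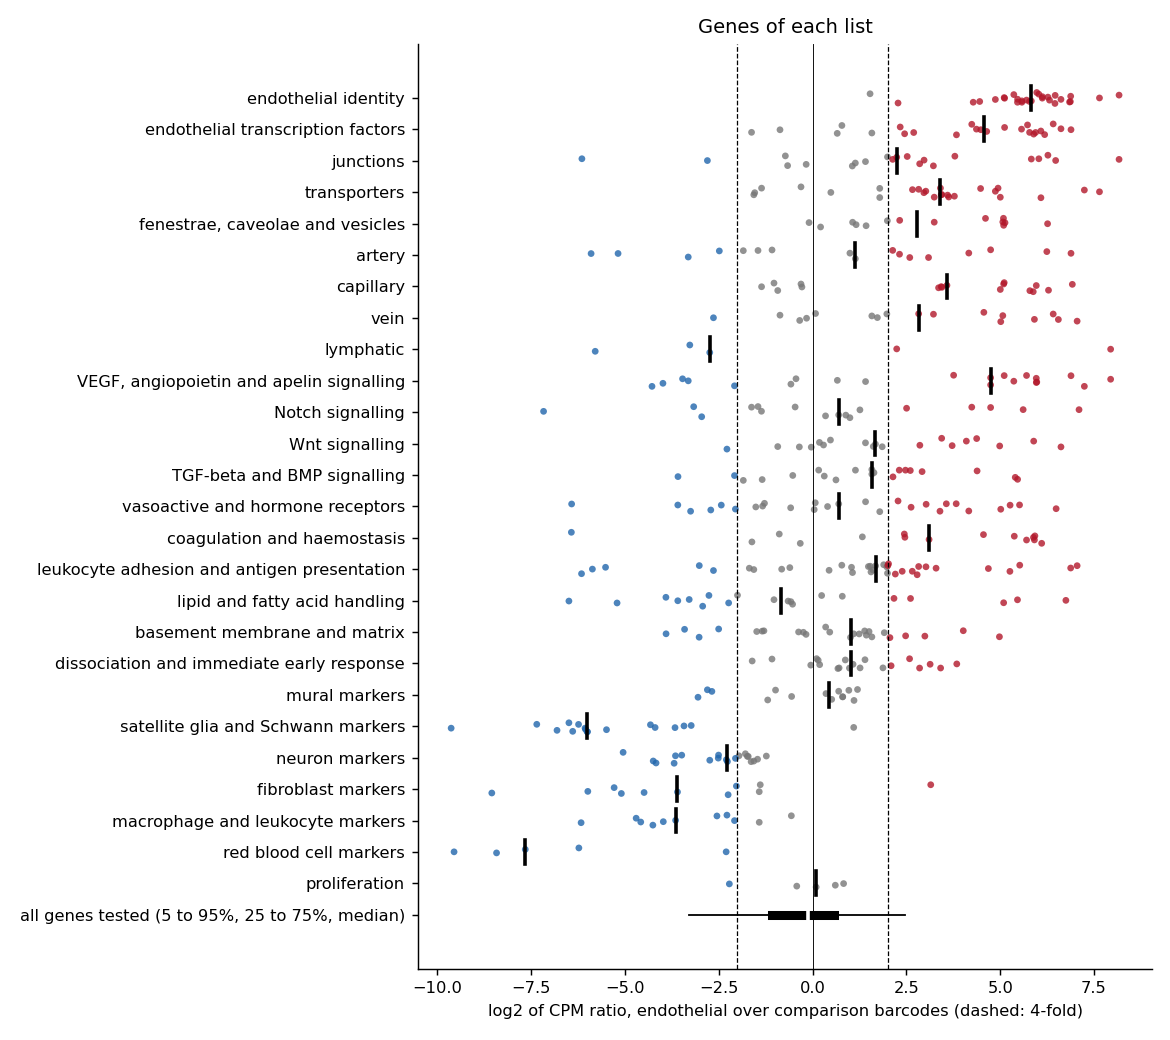
Ratio of CPM in endothelial over comparison barcodes for the genes of each list, on a log2 axis; points are genes, thick ticks are list medians, dashed lines mark 4-fold, and the lowest bar shows all genes tested. The endothelial identity list lies almost wholly to the right of the upper line, with a median ratio of 56.9, and the satellite glia and Schwann list almost wholly to the left of the lower one, with a median of 0.0156.

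Arterial, capillary and venous genes were then followed among the endothelial barcodes. Of 17 capillary genes 12 were at least 4-fold higher than in comparison barcodes and 0 lower, of 17 venous genes 9 were higher and 1 lower, and of 17 arterial genes 8 were higher and 4 lower. With the 21 endothelial barcodes rich in mural RNA left out, 10 venous genes were higher and 2 lower. Of the arterial genes 7 were then higher and 4 lower, and the capillary counts stayed the same. The capillary chemokine gene Cxcl12 had a median of 1075 and a highest level of 7912 CPM in endothelial barcodes and was seen in 88.5%, with 386.9 CPM in mural-marked barcodes. Car4, a carbonic anhydrase gene of capillary walls, was seen in 59, Rbp7 in 82 and Aplnr in 43. The arterial genes Bmx, Sema3g, Gja4 and Vegfc were seen in 44, 43, 35 and 18 endothelial barcodes. Of the venous list, Vwf, Ch25h and Lcn2 were seen in 83, 53 and 32. Vwf was in 28 of the 35 barcodes with arterial Gja4, beside 25.7 expected from the shares of both genes. Lcn2 was in 12 of the 35 (9.91 expected) and Ch25h in 11 (16.4 expected). Whether the list labels hold in these cells was not tested. Lcn2 had 54 against 0 UMIs, at least 85.2-fold higher with the floor of 3 UMIs over the comparison barcodes. The venous chemokine receptor gene Ackr1 had 6.30 against 39.3 CPM, with 76.9 CPM in the free RNA.

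With the whole lists, 15 endothelial barcodes had more arterial than venous UMIs (13.3%, 7.62 to 20.9), 96 had more venous and 2 had equal numbers. Few genes carried this division. Tmsb10, a gene active in many cell types, gave 66.1% of the venous UMIs. Mgp and Stmn2, a neuronal gene with 2509 CPM in the free RNA, gave 43.1% of the arterial UMIs. Without these 3 genes, a choice made after their share was seen, 34 barcodes had more arterial UMIs (30.1%, 21.8 to 39.4), 75 more venous and 4 equal. The arterial and venous sums then had a Spearman correlation of -0.13 over the endothelial barcodes, all of 1 library, with medians of 4 and 8 UMIs. Single barcodes thus held few UMIs of either kind.

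**Figure D4:**
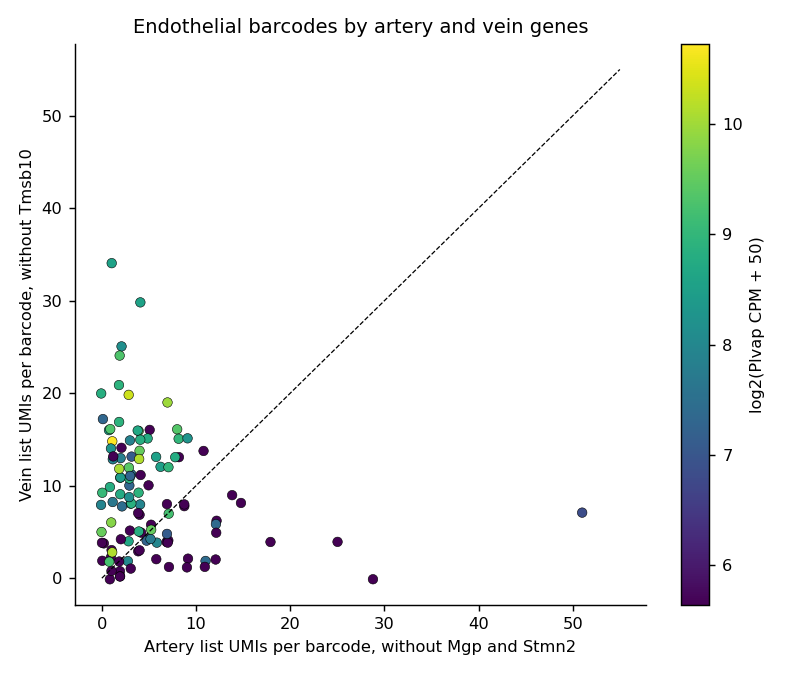
UMIs of the arterial list without Mgp and Stmn2 (horizontal) against UMIs of the venous list without Tmsb10 (vertical) in each endothelial barcode, coloured by Plvap level as log2(CPM + 50); the dashed line marks equal numbers. Most barcodes lie low on both axes, 34 fall below the line and 75 above it, and the barcode with the most arterial UMIs had 51.

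Barcodes that carried the arterial connexin gene Gja4 differed in other genes from those without it. The 35 with a Gja4 UMI had a median of 9191 UMIs, against 8572 in the 78 without. Sema3g, an arterial semaphorin gene, had 141.3 against 52.6 CPM in barcodes with against without Gja4. The taurine carrier gene Slc6a6 had 497.7 against 224.8 CPM and Slc2a1 890.9 against 435.2 CPM. Levels of other genes were lower with Gja4, Plvap at 98.3 against 299.7 CPM, Car4 at 101.4 against 274.2 CPM and Aqp1 at 86 against 266.2 CPM. Rgs5, the mural gene, moved with this division, at 768.1 against 145.1 CPM. When the 21 endothelial barcodes with at least 1000 CPM of mural markers were left out, 22 barcodes with Gja4 and 70 without remained. Slc2a1 then had 994.2 against 407.1 CPM and Plvap 67.2 against 318.4 CPM. By ratio, Slc2a1 and Plvap lay farther apart without those barcodes than with them, while Ch25h, Vcam1 and Gpihbp1 lay closer together. The part of mural RNA in this division was not tested. The venous factor gene Nr2f2 was at 86 against 133.9 CPM over all endothelial barcodes. Without the barcodes rich in mural RNA it was at 9.61 against 119.4 CPM, from 2 UMIs in the 22 with Gja4.

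The endothelial barcodes were also divided by Plvap. The 67 barcodes with Plvap had a median of 9284 UMIs, against 8756 in the 46 without. Aqp1, a water channel gene, had 266.2 against 106.4 CPM in barcodes with against without Plvap, Ch25h 133.1 against 57.3 CPM and Vcam1 32 against 3 UMIs. The glucose carrier gene Slc2a1 had 395.8 against 902.7 CPM and Mfsd2a 603.98 against 788.2 CPM. Levels lay closer together for Abcb1a (846.3 against 940.9 CPM), Slco1a4 (554.5 against 613.6 CPM) and the capillary proteoglycan gene Spock2 (2484 against 2493 CPM). Abcb1a was seen in 65 of the 67 barcodes with Plvap and in 41 of the 46 without. Rgs5 moved with this division at 194.5 against 619.1 CPM, and Apoe at 650.1 against 379.1 CPM. Without the 21 barcodes rich in mural RNA, 57 with Plvap and 35 without remained. Aqp1 then had 289.04 against 123.99 CPM, Ch25h 145.5 against 71.4 CPM, Slc2a1 416.4 against 849.1 CPM and Mfsd2a 640.7 against 826.6 CPM.

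In a division by Selp, 8 endothelial barcodes carried this gene, which encodes the P-selectin that venous endothelium uses to catch leukocytes. They had a median of 5657 UMIs, against 9055 in the others. All 8 carried Aqp1, at 1015 against 160.5 CPM with against without Selp, and Vwf was at 669.8 against 216.9 CPM. Levels of 6 capillary or carrier genes were lower with Selp, with intervals of the ratio below 1. These intervals cover counting error in summed UMIs and not the spread between barcodes, and no difference was tested. Slc7a5 had 40.6 against 500.3 CPM, from 2 UMIs in the 8 barcodes, and Car4 81.2 against 222.5 CPM, from 4 UMIs. Cxcl12 had 182.7 against 1464 CPM, Spock2 487.1 against 2597 CPM, Slc2a1 142.1 against 615.4 CPM and Mfsd2a 182.7 against 701.7 CPM. Of 11 Sele UMIs 10 were in these 8 barcodes, and no Sema3g UMI was. Intervals of the ratio included 1 for Abcb1a (791.6 against 887.7 CPM), Slc6a6 (182.7 against 325.4 CPM), Abcg2 (1076 against 1355 CPM), Slco1a4 (466.8 against 583.3 CPM), Gpihbp1 (142.1 against 183.7 CPM) and Slc16a4, which was at 121.8 against 99.6 CPM. Apoe was at 1076 against 516.9 CPM and Rgs5 had no UMI with Selp.

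Of 9 lymphatic genes 6 had 0 UMIs in the endothelial barcodes, namely Prox1, Lyve1, Pdpn, Ccl21a, Reln and Mmrn1. Of 5 with enough UMIs in both sets together, 2 were at least 4-fold higher, Flt4 among them, and 3 lower. The list summed to 86 UMIs in the endothelial barcodes, held by Flt4, Itga9 and Thy1. Flt4, a VEGF receptor gene of lymphatics that blood capillaries can also carry, had 52 against 1 UMIs, spread over 39 endothelial barcodes (34.5%).

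Genes that cells switch on soon after stress or tissue dissociation varied widely among endothelial barcodes. Fos, a component of the AP-1 factor, had a lowest level of 0, a median of 1419 and a highest level of 10518 CPM, and 25 barcodes had none. Egr1 had a median of 198.6 and a highest level of 4651 CPM. Both were present in comparison barcodes as well, at ratios of 1.11 (1.07 to 1.16) and 1.98 (1.83 to 2.13). Over the endothelial barcodes, all of 1 library, Fos and Egr1 had a Spearman correlation of 0.84, and Fos and the total UMIs one of 0.14. Of 20 genes of the dissociation list 6 were at least 4-fold higher and 0 lower, namely Ier3 (ratio 14.4, 12.7 to 16.2), Ctgf, Nfkbia (8.77), Hspb1 (7.22), Apold1 (6.0) and Ier2 (4.27, or 3.75 without the 21 endothelial barcodes rich in mural RNA). The heat shock gene Hspa1a had 14.7 against 44.8 CPM, and Hspa1b had 0 UMIs in the endothelial barcodes. Hspa1a was below the lower limit, at 0.147, without the barcodes rich in mural RNA. The whole list summed to 15441 CPM in endothelial, 8167 CPM in comparison and 23202 CPM in mural-marked barcodes, so it was highest in the mural-marked ones.

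**Figure D5:**
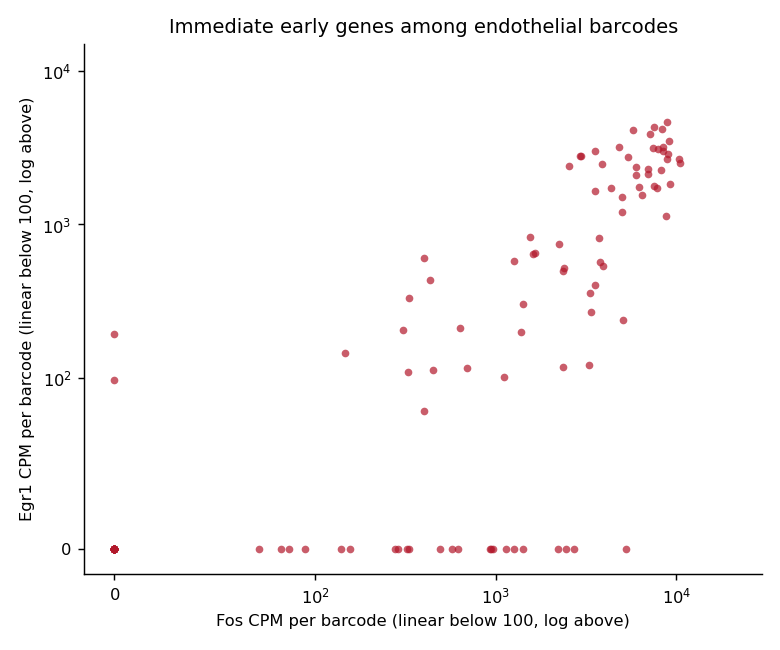
Fos (horizontal) against Egr1 (vertical) in each endothelial barcode, in CPM on axes that are linear below 100 and logarithmic above. Barcodes run from 0 for both genes to 10518 CPM of Fos and 4651 CPM of Egr1, and the genes rank alike with a Spearman correlation of 0.84.

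RNA of other cell types varied among the endothelial barcodes. The mural list summed to 827.1 CPM in endothelial barcodes, 906.5 CPM in comparison barcodes and 21289 CPM in mural-marked barcodes, over 15 genes of which Cnn1 was at 0. In single endothelial barcodes it ranged from 0 to 18961 CPM with a median of 99.3. It reached 1000 CPM in 21 of them, in which it summed to 3706 CPM against 101.2 CPM in the other 92. Of the endothelial barcodes 12 also met the Rgs5 mark. In turn, mural-marked barcodes held endothelial RNA. The endothelial identity list summed to 3110 CPM in them, beside 435.8 CPM in satellite glia and 25110 CPM in endothelial barcodes. The median depth was 9709 UMIs in the 21 and 8756 in the 92, and no doublet caller was run. Neuron markers summed to 1538 CPM in endothelial barcodes (range 507.05 to 4949), 6577 CPM in comparison barcodes and 19652 CPM in the free RNA, with Scn11a at 0 in endothelial barcodes. Satellite glia and Schwann markers summed to 2363 CPM in endothelial barcodes, 69209.7 CPM in comparison barcodes and 6020.4 CPM in the free RNA. In single endothelial barcodes this sum ranged from 0 to 22752 CPM with a median of 2134. Kcnj10 and Foxd3 had 0 UMIs in endothelial barcodes. Of 15 macrophage and leukocyte markers 11 were at 0, and the list summed to 8.40 CPM, against 427.99 CPM in comparison barcodes. Fibroblast markers summed to 95.5 against 2250.4 CPM, with Col1a1, Lum, Mfap5, Dpt and Pdgfra at 0. Red blood cell markers summed to 18.9 against 3519 CPM, with a highest level of 919029 CPM in a single comparison barcode. The part of this RNA in the genes above was not tested, except where values without the barcodes rich in mural RNA are given.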

How the data were processed

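The authors deposited UMI counts per gene and barcode in a raw and a filtered matrix from 1 library of 10x Genomics cells. Per the submitters' processing notes Cell Ranger 2.0.1 and the build mm10 were used, and further settings were not recorded in the labels. The deposited gene table holds names only (unit other). The raw matrix has 737280 barcodes, 28001 genes and 92317494 UMIs, and the filtered one 1108 barcodes, all of which were found in the raw matrix by their identical counts. The barcode names and the table of picked cells were not used here, and a few list genes are counted but not reported here by name.

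The rule found 113 endothelial barcodes. Of the 853 comparison barcodes 39 were mural-marked, 431 satellite-glia-marked and 383 neither. UMIs were summed over each set and scaled to CPM (Python 3.11.15, numpy 2.4.6, scipy 1.17.1, pandas 2.3.3). Ratios are CPM in endothelial over comparison barcodes for genes with 20 UMIs in both sets together, with exact 95% intervals for a pair of Poisson counts, and shares have Clopper-Pearson intervals. A count of 0 was set at a floor of 3 UMIs over the set. A gene was called at a ratio of 4 or more, or 0.25 or less. Free RNA is the sum of 327149 barcodes of 1 to 100 UMIs. Shares were also taken after thinning each barcode to 1000 UMIs, and no barcode of either set was shallower. No doublet caller was run and no barcode was removed as a doublet, but barcodes with mural RNA were left out as an alternative. The ratio and its interval were tested on simulated Poisson counts of the summed sets. These follow the model that the interval assumes and leave out the spread between barcodes, so the test does not cover that spread.

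The members and the 26 gene lists (486 genes) were chosen with earlier results of these data known. The genes named were the 5 markers, in each list the 4 highest and 2 lowest ratios, and outside the lists and mitochondrial, ribosomal and gene-model names the 20 highest and 8 lowest among genes with 50 UMIs in both sets and a UMI in 20% of endothelial (highest) or comparison barcodes (lowest). Other list genes in the text were chosen for their known roles with values in view, as were the divisions by Gja4, Plvap and Selp. Gene positions are from GENCODE on GRCm38, the build equal to mm10. Alternatives changed the UMI, Cldn5 and Snap25 limits, the call limits, the gene minimum, the averaging and the depth. Leaving out comparison barcodes with Cldn5, and Tmsb10, Mgp and Stmn2, was added after seeing the data.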

Additional observations from a re-analysis of the deposited data

How the results depend on the processing

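Stricter limits left 86 endothelial barcodes at a Cldn5 limit of 2000 CPM, 98 with Snap25 below 250 CPM and 92 without barcodes rich in mural or Fabp7 RNA. Genes at least 4-fold higher numbered 740 of 11620 tested (6.37%) and lower ones 1587 (13.7%). At a ratio of 2 they numbered 1747 (15.03%) and 3036 (26.1%), and among the 6892 genes with 100 UMIs 380 (5.51%) and 951 (13.8%). After thinning to 1000 UMIs, where only 6359 genes reached the minimum, 4.94% were higher and 7.74% (492 genes) lower. Without a gene minimum the lower genes made up 9.58% of 16573. Under the other alternatives run, both counts and both shares stayed within 1.5 times. The share of endothelial barcodes with 2 unused markers was 98.2%, and 54.9% after thinning. The share of them with more arterial than venous UMIs was 13.3%, and 30.1% without Tmsb10, Mgp and Stmn2, left out after seeing the data. Neuron markers summed to 1538 CPM, to 1451 CPM with Snap25 below 250 CPM and to 1726 CPM after thinning. Of the named genes past a limit, 0 lost the call with a minimum of 2000 UMIs, 7 with a Cldn5 limit of 2000 CPM, 5 with Snap25 below 250 CPM and 6 without the barcodes rich in mural or Fabp7 RNA. Cldn1 lost its call under the last 2 of these, Ramp1 under the last and Ackr1 with Snap25 below 250 CPM. After thinning 73 kept the call, 11 lost it, with Vegfa, F3 and Ackr1 among them, and 68 named genes had too few UMIs. Cldn1 and Ramp1 had 0 UMIs left without the barcodes rich in mural RNA, so their values there rest on the floor. For the other calls the cause was not tested. The ratios themselves moved more often than the calls. Of the named genes, 92 moved by over 1.5 times with a Cldn5 limit of 2000 CPM, 38 with one of 500 CPM, 55 without comparison barcodes that held Cldn5, 54 after thinning, 40 by the mean of barcode CPM, 22 with Snap25 below 250 CPM and 21 without the barcodes rich in mural or Fabp7 RNA. The printed intervals do not cover these choices. No direction of a called gene was reversed under the alternatives run. No paired analysis was possible because there was 1 library with no replicates. Depth limits genes of few UMIs, and variation between mice was not measured.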

Other observations

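The genes outside the lists with the highest ratios included enzymes, immune genes and a HOX gene. Fmo2, a flavin monooxygenase gene, had a median of 337.3 and a highest level of 1484 CPM in endothelial barcodes, with 350.6 against 4.21 CPM in endothelial against comparison barcodes (ratio 83.2, 52.4 to 139.9). Xdh, the xanthine dehydrogenase gene, had 87 against 5 UMIs, and Degs2, a sphingolipid desaturase gene, 110 against 3 UMIs. Of immune genes, Gimap6, a GTPase gene of lymphocytes and endothelium, had 503 against 32 UMIs (ratio 74.4), the interferon-induced Gbp4 108.1 against 0.665 CPM, the death ligand gene Tnfsf10 58 against 3 UMIs and Pglyrp1, whose product binds bacterial peptidoglycan, 70 against 2 UMIs. Hoxd4, a HOX gene of the hindbrain and neck level of the body axis, had 57 against 3 UMIs and was seen in 40 endothelial barcodes (35.4%), against 0.352% of comparison barcodes and none of the satellite glia. Slc39a8, a zinc and manganese carrier gene, had 124.9 against 1.55 CPM. Unc45b, a myosin chaperone gene known from muscle, had 91 against 5 UMIs, with 0 CPM in mural-marked barcodes.

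The lowest genes outside the lists had higher levels in satellite glia than in mural-marked or endothelial barcodes. Sostdc1 had 0 against 3570 UMIs, at most 0.00398 of the comparison level with the floor of 3 UMIs, with 1165 CPM in satellite glia. Lpar1 had 1 against 2590 UMIs, Mmd2 1 against 2595 UMIs and Sfrp5 2 against 3319 UMIs. Genes of dividing cells were scarce among the endothelial barcodes. Mki67 had 1 UMI, Top2a 3 and Ccnb1 0, while the replication factor gene Pcna was seen in 29 barcodes (ratio 1.52, 1.02 to 2.22). Ribosomal protein genes took a median of 18.7% of UMIs in endothelial barcodes, against 9.0% in comparison barcodes and 11.3% in mural-marked barcodes.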
